A study of Danio rerio with 6 samples.

Results

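The genes described are 10 neuropeptide genes of the zebrafish brain, chosen by symbol: hcrt, npy, agrp, pmch, oxt, avp, trh, gnrh3, gnrh2 and pomcb. All 10 were found among the 19260 genes that array rows named singly. agrp had 2 rows, which were averaged, and the other 9 genes had 1 row each. RNA came from the whole brain of each of 6 Tübingen zebrafish (Danio rerio), adults of unspecified sex and about 1 year of age, and each brain was hybridised to its own Zebrafish Gene 1.0 ST array from Affymetrix. In the hypoxia group 3 fish spent 3 h in water from which nitrogen had displaced oxygen, down to 1.20 ± 0.6 mg/l. In the normoxia group 3 fish were at the ambient 6.6 ± 0.45 mg/l (the kind of error is unstated). Fish of both groups carried no stated transgene or mutation, and death by chilling before removal of the brain is described for the hypoxia trials. The single comparison asks which brain transcripts differ after the oxygen-poor exposure. It is given below as hypoxia minus normoxia on the log2 scale.

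Neuropeptides are cut from larger precursor proteins, stored in dense core granules and released by neurons onto other neurons or into the blood. In the hypothalamus npy, agrp, pmch and pomc products take part in the control of feeding, hcrt in wakefulness, and oxt and avp in the hormones of the posterior pituitary. Thyrotropin-releasing hormone and the gonadotropin-releasing hormones act on the anterior pituitary, although in fish gnrh2 neurons lie in the midbrain rather than the hypothalamus, and npy and trh are made in other brain regions as well. Since a whole brain was measured, a smaller number of peptide neurons and less transcript per neuron cannot be told apart.

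The arrays differed in ways that bear on small differences. Median gene values were 7.33, 7.32 and 7.38 in hypoxia 1 to 3, against 7.60, 7.40 and 7.45 in normoxia 1 to 3. The SD of gene values within an array was 1.25, 1.34 and 1.42 in hypoxia, against 1.60, 1.27 and 1.47 in normoxia. The median log2 difference over all genes was -0.08 as deposited and 0.06 once each array was shifted to an equal median gene value. Over all array rows, most of which name no single gene, the medians were 6.59, 6.54 and 6.45 in hypoxia, against 6.28, 6.60 and 6.38 in normoxia. normoxia 1 thus had the highest median over genes and the lowest over rows, and equal medians over all rows gave a median gene difference of -0.18. Of 11 measured pituitary markers, 10 had their 2 highest values in hypoxia 3 and normoxia 3, the exception being the transcription factor gene pitx1. The mean deviation of the 11 pituitary markers from each gene's average was 1.52 in hypoxia 3 and 2.004 in normoxia 3. It was between -1.26 and -0.58 in the other 4.

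None of the 10 neuropeptide genes passed the threshold of 0.05 on the limma p adjusted over all genes, where 1 of 19260 genes (0.00519%) passed. At an unadjusted limma p under 0.05 there was 1 member, hcrt, against 6.66% of all genes, or 5.76% counting those lower in hypoxia as hcrt was. 3 members, npy, agrp and avp, had a higher mean in hypoxia and 7 a lower one, beside 38.5% of all genes with a higher and 61% with a lower mean. The median member difference of -0.07 lay next to the median of all genes, -0.08, with 5 members above that median and 5 below it. The values of hypoxia and normoxia fish did not overlap in 1 member, again hcrt, against 11.3% of all genes, so the share of members is near the background.

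**Figure D1:**
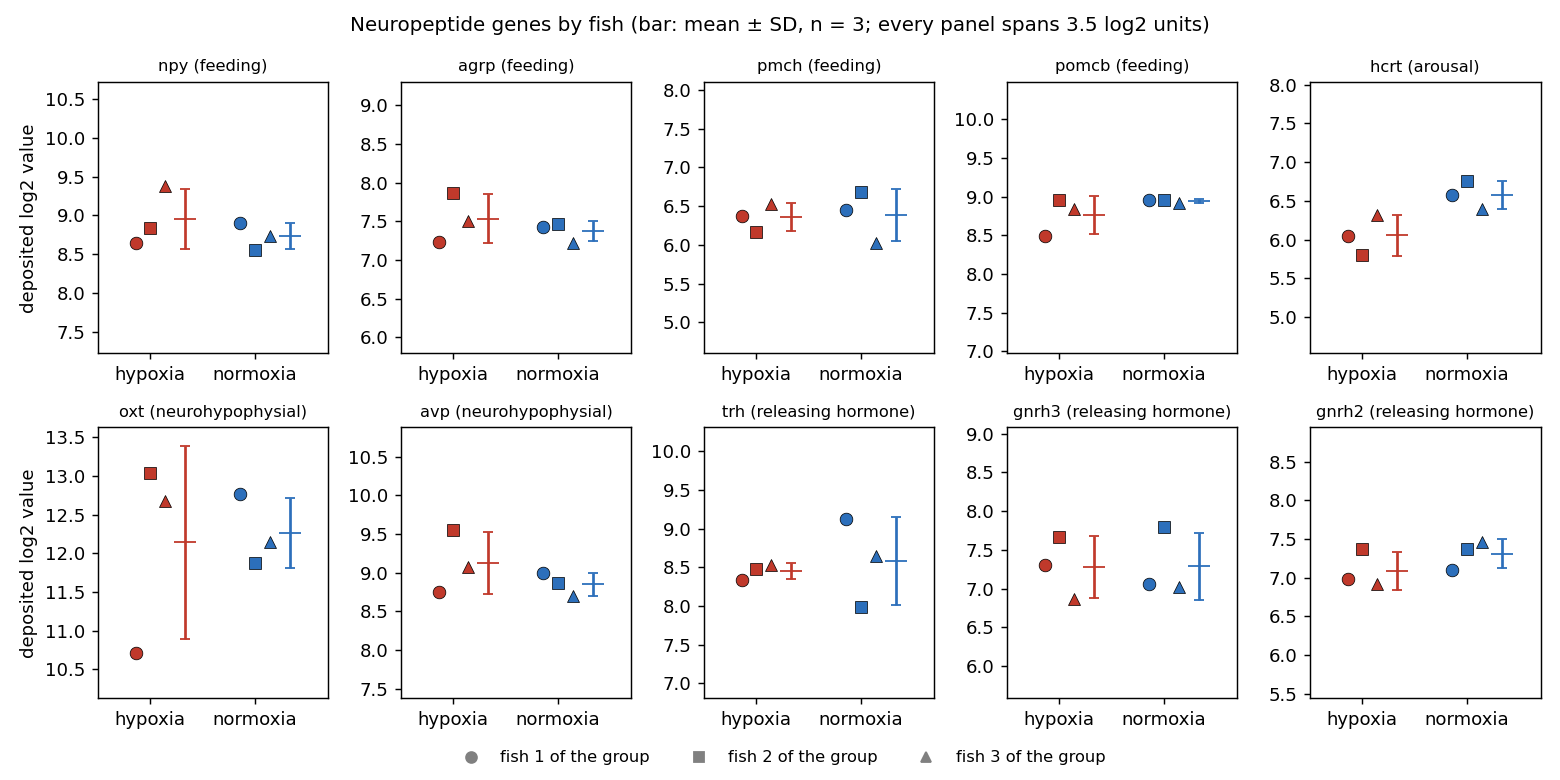
Deposited log2 value (vertical axes, each spanning the same width) of each neuropeptide gene in the 3 hypoxia fish (red, left) and the 3 normoxia fish (blue, right), with mean ± SD (n = 3) beside the points and the symbol shape giving the fish number in its group. hcrt is the gene whose groups do not overlap, and oxt has the widest spread, from 10.71 in hypoxia 1 to 13.04 in hypoxia 2.

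hcrt encodes the precursor of hypocretin (orexin) peptides, which hold the brain awake and which zebrafish make in a small cluster of hypothalamic neurons. Its log2 values were 6.04, 5.80 and 6.32 in hypoxia, against 6.57, 6.76 and 6.39 in normoxia. Every hypoxia fish lay below every normoxia fish, with 0.07 between the nearest of them, hypoxia 3 and normoxia 3. The means were 6.05 ± 0.26 in hypoxia and 6.57 ± 0.19 in normoxia (SD over 3 fish in each group), which is a difference of -0.52 (SE 0.204, 95% interval -0.98 to -0.06). This is a ratio of 0.697, with an interval from 0.506 to 0.96. The limma p was 0.0312 before and 0.720 after adjustment over all genes, and the exact two-sided permutation p was 0.1, the smallest that 3 against 3 fish can give.

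The hcrt signal was dim. Its average of 6.31 stood at percentile 17.2 of all gene averages, and the deposited values carry no detection call, so how far it is above background is not known. Among the 9630 genes below the median level the median difference was 0.03 and 6.33% lay lower in hypoxia without overlap, against 11.7% of the 9630 brighter genes. The difference kept its sign under all 15 alternatives run on it, though many of them could not turn it. The brightest row, replicate block, intensity trend and robust moderation left it at -0.52. Leaving fish out cannot reverse groups that do not overlap. Its values ran from -0.74 without hypoxia 3 and normoxia 3 together to -0.38 with equal medians of gene values. With those equal medians hypoxia 3 and normoxia 3 had the same hcrt value, 6.35, so the groups then touched. After quantile normalization of gene values they stayed apart, at 5.91, 5.72 and 6.35 in hypoxia against 6.68, 6.63 and 6.47 in normoxia.

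hcrtr2, the hypocretin receptor gene of zebrafish, was 7.17, 7.07 and 7.24 in hypoxia against 7.02, 7.16 and 7.03 in normoxia, a difference of 0.09 with overlapping groups. lhx9, a homeobox gene that can drive the formation of hypocretin neurons in zebrafish larvae, was 9.06, 9.40 and 9.42 in hypoxia, against 10.37, 9.30 and 9.62 in normoxia (log2 difference -0.47, limma adjusted p = 0.736). The profiles over the 6 fish most like that of hcrt were those of batf3 and ccdc166, at root mean square differences of 0.08 and 0.09 log2 units after each gene's mean was removed. hcrt itself varied by 0.32 on that measure. These were picked from 16872 genes over 6 arrays, and how close a match chance would give was not tested.

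The feeding genes split between a pair with higher means in hypoxia and a pair with lower ones, and none of the 4 separated the groups as deposited. npy encodes neuropeptide Y, which stimulates feeding in fish as in mammals. Its log2 values were 8.64, 8.84 and 9.38 in hypoxia, against 8.90, 8.56 and 8.74 in normoxia. hypoxia 3 was the highest of the 6 fish, and the other hypoxia fish lay among the normoxia fish. The means were 8.95 ± 0.38 in hypoxia and 8.73 ± 0.17 in normoxia (SD, n = 3 each), a difference of 0.22 (95% interval -0.30 to 0.74, limma adjusted p = 0.813).

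The difference of npy was 0.01 without hypoxia 3, the fish in which npy was highest. Pituitary transcripts were high in hypoxia 3 and also in normoxia 3, where npy was 8.74. With equal medians over all rows the difference of npy was 0.11. With equal medians of gene values it was 0.36, with 8.72, 8.93 and 9.41 in hypoxia against 8.71, 8.57 and 8.70 in normoxia, so that the groups no longer overlapped. Quantile normalization of gene values gave 0.42 (limma adjusted p = 0.639), also without overlap. The genes closest in profile to npy were klf2a, a transcription factor of vascular cells among others, and irs2a, an adaptor of insulin signalling, at 0.04 and 0.06 log2 units. Both were highest in hypoxia 3, klf2a at 8.52 and irs2a at 10.64, which follows from their choice by likeness to npy. They were picked from 16872 genes, and how close a match chance would give was not tested.

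agrp encodes agouti-related peptide, which blocks melanocortin receptors and thereby favours feeding, and which in mammals comes from the same hypothalamic neurons as npy. Its values were 7.24, 7.87 and 7.51 in hypoxia, against 7.43, 7.47 and 7.23 in normoxia. The groups overlapped, with hypoxia 2 the highest fish and hypoxia 1 next to the lowest one, normoxia 3. The difference was 0.16 (95% interval -0.31 to 0.64, adjusted p = 0.842). Its 2 array rows stood at unlike signal but gave the same sign, the first with 6.43 in hypoxia and 6.32 in normoxia and the second with 8.64 in hypoxia and 8.43 in normoxia. Without hypoxia 2 the difference of agrp was 0.00, so the value rests on that fish.

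pomcb is the second of the zebrafish pro-opiomelanocortin genes, a family whose precursor yields melanocortins that curb feeding. Its values were 8.49, 8.96 and 8.84 in hypoxia, against 8.95, 8.96 and 8.92 in normoxia. The normoxia fish lay within 0.04 of each other, and hypoxia 1 stood below the rest. The means were 8.76 ± 0.24 in hypoxia and 8.94 ± 0.02 in normoxia (SD, n = 3 each), a difference of -0.18 (95% interval -0.61 to 0.25, adjusted p = 0.814). Without hypoxia 1 it was -0.04, and after quantile normalization of gene values 0.02.

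pmch encodes the precursor of melanin-concentrating hormone, which pales the skin of fish and promotes feeding in mammals. Its values were 6.37, 6.17 and 6.53 in hypoxia, against 6.45, 6.68 and 6.02 in normoxia, so the groups overlapped widely. The difference was -0.03 (95% interval -0.52 to 0.47, adjusted p = 0.981), and its sign turned under 4 of 15 alternatives. Like hcrt it was dim, with an average of 6.37 at percentile 18.6. Its paralog pmchl was 6.40, 7.44 and 6.87 in hypoxia, against 6.73, 6.74 and 6.58 in normoxia, with a difference of 0.22 and hypoxia 2 as the highest fish.

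Members can also be set against each other within each brain, where a shift of the whole array cancels. agrp minus pomcb was -1.26, -1.10 and -1.34 in hypoxia, against -1.52, -1.50 and -1.70 in normoxia, which do not overlap. That separation holds for the mean of the agrp rows as deposited, and equally with equal array medians, which cancel here. With either agrp row alone, or after quantile normalization of gene values, the groups overlapped. npy minus pomcb was 0.15, -0.12 and 0.54 in hypoxia, against -0.05, -0.40 and -0.18 in normoxia, which do. hcrt minus pmch was -0.33, -0.37 and -0.21 in hypoxia, against 0.12, 0.08 and 0.37 in normoxia, which do not overlap, though both genes are dim. The absolute size of such a difference means nothing, because array rows respond unequally, and only its change between fish can be read. Of the 45 pairs of members 6 (13.3%) had differences that did not overlap between groups, against 11.3% of all 185464170 pairs of genes, so that share too is near the background. 4 of the 6 pairs contain hcrt, paired with npy, agrp, pmch and avp, and the others are agrp with pomcb and avp with pomcb. hcrt alone already did not overlap between groups, so the pairs with hcrt reuse those values and are no separate findings.

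Of the neurohypophysial genes, oxt varied far more between fish than between groups, and avp did not stand out in this way. oxt encodes isotocin, the fish form of oxytocin. Its log2 values were 10.71, 13.04 and 12.67 in hypoxia, against 12.76, 11.88 and 12.14 in normoxia. hypoxia 1 was the lowest fish and hypoxia 2 the highest, 2.33 apart or 5.03-fold, and the normoxia fish lay between them. The means were 12.14 ± 1.25 in hypoxia and 12.26 ± 0.45 in normoxia (SD, n = 3 each), a difference of -0.12 (SE 0.536, 95% interval -1.33 to 1.09, adjusted p = 0.959).

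The spread of oxt within groups, a residual SD of 0.94, stood at percentile 99.3 of all genes. That percentile was 83.3 for gnrh3, 81.9 for trh, 59.7 for avp and 20.6 for pomcb. The interval of the oxt ratio, 0.398 to 2.13, is the widest of the 10 members. Without hypoxia 1 the difference was 0.59, and without hypoxia 2 it was -0.57, so its sign rests on single fish. On each of the 6 arrays oxt stood at percentile 98.9 or above, so the transcript was bright also in the fish where it was lowest.

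avp encodes vasotocin, the fish counterpart of vasopressin, which acts on water balance and on the stress axis. Its values were 8.75, 9.55 and 9.07 in hypoxia, against 8.99, 8.86 and 8.70 in normoxia. hypoxia 2 and hypoxia 3 were above all normoxia fish, and hypoxia 1 was between normoxia 2 and normoxia 3. The means were 9.12 ± 0.40 in hypoxia and 8.85 ± 0.15 in normoxia (SD, n = 3 each), a difference of 0.27 (95% interval -0.25 to 0.80, adjusted p = 0.774). It was 0.06 without hypoxia 2, 0.46 without hypoxia 1 and 0.47 after quantile normalization of gene values, which left the groups overlapping.

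Over the 6 fish avp and agrp had the closest profiles of the 45 member pairs, at a root mean square difference of 0.09 log2 units. Both were highest in hypoxia 2 and lowest in normoxia 3, which goes with their choice as the closest pair. pmchl was the second closest gene to avp among all those compared, also at 0.09, behind cyp39a1, a sterol hydroxylase gene. The closest genes to oxt were timp4.3, of the metalloproteinase inhibitor family, and pdyn, which encodes the opioid precursor prodynorphin, at 0.35 and 0.36 log2 units. oxt itself varied by 0.77 about its mean on that measure, so these matches were loose. pdyn was 7.25, 8.42 and 8.36 in hypoxia, against 8.61, 8.02 and 8.05 in normoxia. Its lowest fish was hypoxia 1 as in oxt, which follows from its choice by likeness to oxt and is no separate finding.

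**Figure D2:**
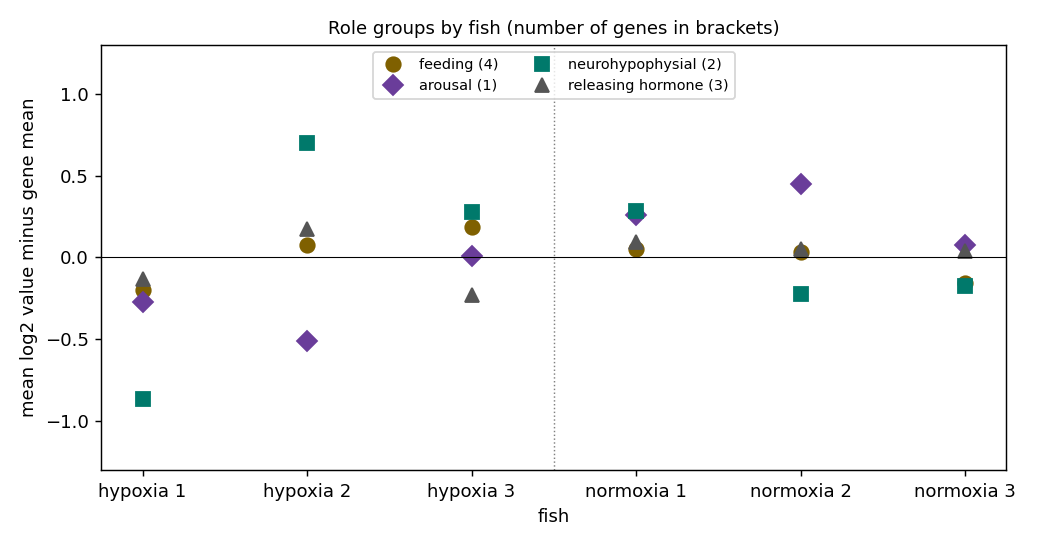
Mean log2 value minus the gene's mean over 6 fish (vertical axis) for the feeding, arousal, neurohypophysial and releasing hormone genes in each fish (horizontal axis, hypoxia left of the dotted line). The neurohypophysial score runs from -0.86 in hypoxia 1 to 0.70 in hypoxia 2, and the arousal score, which is hcrt alone, is at most 0.01 in hypoxia and at least 0.08 in normoxia. The feeding score averages genes that favour feeding and pomcb, whose family curbs it, with the same sign.

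The scores of the role groups can be set side by side within each fish. The feeding score averages genes that favour feeding, such as npy and agrp, with pomcb, whose family curbs it, all with the same sign. It is thus no measure of feeding drive, and the differences of npy (0.22), agrp (0.16), pmch (-0.03) and pomcb (-0.18) partly cancel in it. The feeding score was -0.20, 0.08 and 0.18 in hypoxia, against 0.05, 0.04 and -0.15 in normoxia. The neurohypophysial score was -0.86, 0.70 and 0.28 in hypoxia, against 0.28, -0.22 and -0.17 in normoxia. These 2 scores had the same sign in 5 of 6 fish, normoxia 2 being the exception, and all 4 scores were below 0 in hypoxia 1. That fish was also the lowest in 26.8% of all genes, and its member deviations ran from -1.49 in oxt to 0.015 in gnrh3. The part of array differences in the shared signs was not tested. hypoxia 2 combined the highest neurohypophysial score of the 6 fish with the lowest arousal score, -0.51, and hypoxia 1 combined the lowest neurohypophysial score with an arousal score of -0.27. The differences of the mean scores were 0.04 for feeding, -0.52 for arousal, 0.08 for neurohypophysial and -0.12 for releasing hormone genes.

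The releasing hormone genes all had slightly lower means in hypoxia as deposited, as had 61% of all genes, and the groups overlapped in each. With equal medians of gene values the differences were 0.0033 for trh, 0.13 for gnrh3 and -0.08 for gnrh2. trh encodes thyrotropin-releasing hormone. Its values were 8.33, 8.48 and 8.53 in hypoxia, against 9.12, 7.99 and 8.64 in normoxia, with both the highest and the lowest fish in normoxia. The difference was -0.14 (95% interval -0.76 to 0.48, adjusted p = 0.903), and it was 0.13 without normoxia 1 and -0.43 without normoxia 2. The highest trh value was in the array with the largest spread of gene values, normoxia 1.

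gnrh3 encodes the form of gonadotropin-releasing hormone that serves the pituitary in zebrafish, which lack gnrh1. Its values were 7.30, 7.67 and 6.87 in hypoxia, against 7.06, 7.79 and 7.02 in normoxia. The 3 arrays with the smallest spread of gene values, hypoxia 1, hypoxia 2 and normoxia 2, held its 3 highest values, and the groups overlapped. The part of array spread in these values of trh and gnrh3 was not tested apart from its use as a covariate, which gave 0.18 for trh and -0.27 for gnrh3. The difference of gnrh3 was -0.01 (95% interval -0.64 to 0.62, adjusted p = 0.996).

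gnrh2 encodes the midbrain form of the hormone, which has been linked to feeding and sexual behaviour. Its values were 6.98, 7.37 and 6.92 in hypoxia, against 7.10, 7.37 and 7.46 in normoxia. The lowest pair were hypoxia fish, while hypoxia 2 equalled normoxia 2. The difference was -0.22 (95% interval -0.68 to 0.24, adjusted p = 0.786), with the same sign under all 15 alternatives, from -0.36 without hypoxia 2 to -0.06 without hypoxia 3 and normoxia 3 together. Of these, the brightest row, replicate block, intensity trend and robust moderation could not move it from -0.22.

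**Figure D3:**
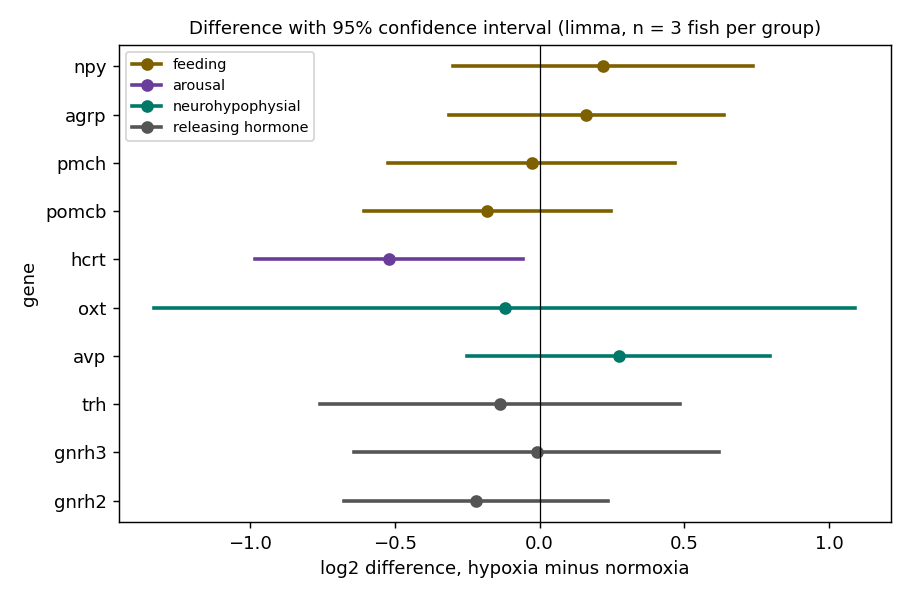
Log2 difference, hypoxia minus normoxia (horizontal axis), of the 10 genes (vertical axis, coloured by role) with the 95% confidence interval of the limma fit (n = 3 fish per group). The interval of hcrt, -0.98 to -0.06, lies below 0, the other 9 include 0, and that of oxt is the widest.

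In order of mean signal over the 6 fish the members ran oxt (12.20), avp (8.99), pomcb (8.85), npy (8.84), trh (8.52), agrp (7.45), gnrh3 (7.29), gnrh2 (7.20), pmch (6.37) and hcrt (6.31). This is an order of array signal and not of transcript number, since rows differ in response. The values of neighbours did not overlap over the 6 fish at the steps from oxt to avp, trh to agrp and gnrh2 to pmch, and overlapped at the others. The place of agrp and its step from trh rest on the mean of rows at unlike signal. Its brighter row ran from 8.16 to 9.06, inside the trh range of 7.99 to 9.12. Its dimmer row ran from 6.21 to 6.67, inside the pmch range of 6.02 to 6.68. The members spread over 0.47 log2 units in pomcb, 0.54 in gnrh2 and 1.13 in trh across all 6 fish, against 2.33 in oxt.

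Pituitary hormone transcripts differed widely between brains, and the members are given beside them. pomca is a pro-opiomelanocortin gene, counted here both as a pituitary marker and among the other peptide genes of the brain. It was 6.03, 6.65 and 10.23 in hypoxia, against 6.74, 6.58 and 10.24 in normoxia. gh1, which encodes growth hormone, was 6.72, 9.39 and 13.19 in hypoxia, against 6.00, 7.90 and 12.83 in normoxia, so that hypoxia 2 stood between the high brains and the rest. Other markers followed less. fshb, a gonadotropin subunit gene, was 7.48, 7.37 and 7.71 in hypoxia, against 7.04, 7.37 and 9.54 in normoxia. tbx19, a transcription factor gene of pituitary corticotropes, spread over 0.34 log2 units across the 6 fish, and so did pitx1. pomcb was 8.84 in hypoxia 3 and 8.92 in normoxia 3, inside the range of the other 4 fish. oxt at 12.67 and 12.14 in these same brains was also inside the range of the others. avp was 9.07 in hypoxia 3, inside that range, and 8.70 in normoxia 3, its lowest value by 0.05. npy had its highest value, 9.38, in hypoxia 3 and was 8.74 in normoxia 3, inside the range of the others. Without both brains the differences were 0.01 for npy, -0.23 for pomcb, -0.45 for oxt and 0.23 for avp. The part of pituitary transcripts in the members' values was otherwise not tested.

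**Figure D4:**
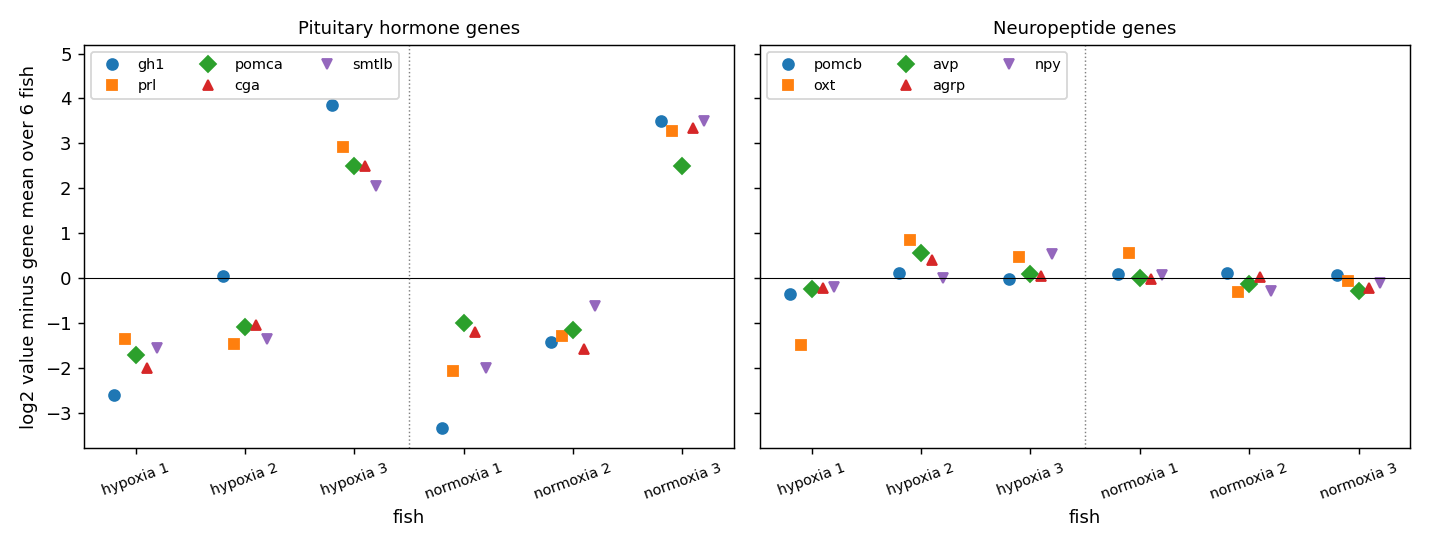
Log2 value minus the gene's mean over 6 fish (vertical axis) in each fish (horizontal axis, hypoxia left of the dotted line) for 5 pituitary hormone genes (left panel) and 5 neuropeptide genes (right panel). The 5 pituitary genes, chosen from the 11 markers and most of them after their values were seen, stand at least 2 log2 units above their means in hypoxia 3 and normoxia 3, and pomcb is near 0 in both.

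Receptors of these peptides gave 27 measured genes, 14 with a higher and 12 with a lower mean in hypoxia and a median difference of 0.01, beside a median of -0.08 over all genes. None passed over all genes (smallest limma adjusted p = 0.720), and 1 had an unadjusted p under 0.05. This was mchr1a, a receptor gene for melanin-concentrating hormone, at 7.52, 7.29 and 7.14 in hypoxia, against 6.51, 6.76 and 6.75 in normoxia. All hypoxia fish lay above all normoxia fish, with a difference of 0.65 (SE 0.187, limma adjusted p = 0.720), while pmch itself differed by -0.03. Of all genes 2.33% were higher in hypoxia without overlap, and 6.66% had an unadjusted limma p under 0.05. The first share was 3.36% below the median level, where mchr1a lay.

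npy2rl, a receptor gene for peptides of the neuropeptide Y family, was 8.97, 9.53 and 9.12 in hypoxia, against 8.59, 9.17 and 8.51 in normoxia, a difference of 0.45 with overlap at normoxia 2. mc5ra, a melanocortin receptor gene, was 8.16, 8.58 and 9.27 in hypoxia, against 9.52, 8.65 and 9.01 in normoxia, a difference of -0.39. The receptor through which melanocortins curb appetite, mc4r, had a difference of 0.00 with values from 6.85 to 7.27.

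Genes that process prohormones or build dense core granules numbered 19, with 8 higher and 9 lower means in hypoxia and a median difference of 0.00, and none passed (smallest limma adjusted p = 0.720). chgb, which encodes the granule protein chromogranin B, was the 1 gene of them with an unadjusted limma p under 0.05, beside 6.66% of all genes. It was 7.57, 8.01 and 7.56 in hypoxia against 8.31, 7.99 and 8.36 in normoxia. Its groups overlapped at hypoxia 2 and normoxia 2, and its difference was -0.51. The next smallest p of the list belonged to the granin gene scg2a, with a difference of -0.59 (limma adjusted p = 0.732), and to vgf, with one of -0.48 (limma adjusted p = 0.755). The scg2a paralog scg2b had the same mean, 10.46, in both groups. The convertase genes pcsk1 and pcsk2 and the carboxypeptidase gene cpe, whose enzymes cut the precursors, had differences of 0.09, -0.07 and -0.08.

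Of 51 other measured peptide genes of the brain 24 had a higher and 27 a lower mean in hypoxia, with a median difference of -0.09, and none passed (smallest limma adjusted p = 0.720, 2 with an unadjusted p under 0.05). npb, which encodes neuropeptide B, was 9.16, 9.58 and 9.78 in hypoxia, against 10.69, 10.10 and 10.14 in normoxia. All hypoxia fish lay below all normoxia fish, with a difference of -0.80 (SE 0.24, adjusted p = 0.720). ucn3l, of the corticotropin-releasing factor family, was 6.85, 7.24 and 6.75 in hypoxia, against 7.42, 7.64 and 7.25 in normoxia, also without overlap, with a difference of -0.49. Among all genes 9.02% were lower in hypoxia without overlap, and 6.66% had an unadjusted limma p under 0.05. The first share was 11.7% at or above the median level, where npb lay, and 6.33% below it, where ucn3l lay. nucb2a, the precursor gene of the satiety peptide nesfatin, was 8.32, 8.59 and 8.58 in hypoxia, against 9.58, 8.50 and 9.15 in normoxia, a difference of -0.58 with overlap.

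oxt deviated from its mean over 6 fish by -1.49 in hypoxia 1, the array with the smallest spread of gene values (SD 1.25). Other peptide genes were often lowest there too, but by far less on average. hypoxia 1 was the lowest of the 6 fish in 22 of the 51 other peptide genes (43.1%), against 26.8% of all genes. Among the 10 members it was lowest in 2 (20%), oxt and pomcb. hypoxia 2 was the highest fish in 4 members (40%), oxt, avp, agrp and, equal with normoxia 2, pomcb. It was also the highest in 10 of the 51 other peptide genes (19.6%), against 7.96% of all genes. normoxia 2 was the highest fish in 4 members as well, pomcb again included, against 15.7% of the 51 other peptide genes and 18.1% of all genes. The mean deviation of the 51 genes was -0.25 in hypoxia 1 and 0.12 in hypoxia 2. The 15 neuron markers deviated by -0.28 in hypoxia 1 and -0.05 in hypoxia 2, and by -0.36 in normoxia 2, where the spread of gene values was also small. The part of array spread and of neuronal content in the fish-to-fish pattern was not tested.

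No transcription factor gene of the hypothalamus separated the groups beyond the threshold. Of 28 measured transcription factor genes of the hypothalamus and its surroundings, 12 had a higher and 16 a lower mean in hypoxia, with a median difference of -0.04 (smallest limma adjusted p = 0.720, 1 with an unadjusted p under 0.05). Their mean deviation ran from -0.10 to 0.09 in hypoxia and from -0.09 to 0.16 in normoxia. dbx1a, a homeobox gene of the developing hypothalamus, was 7.54, 7.39 and 6.92 in hypoxia, against 6.75, 6.85 and 6.62 in normoxia, a difference of 0.54. bsx, which mice need for normal Npy and Agrp expression, was 7.43, 7.09 and 7.40 in hypoxia, against 6.86, 6.97 and 7.06 in normoxia. Its difference was 0.34, likewise without overlap, with a limma p of 0.0929 before and 0.720 after adjustment. For dbx1a the limma adjusted p was 0.720 too. Beside these, 2.33% of all genes were higher in hypoxia without overlap, and 6.66% had an unadjusted limma p under 0.05. Below the median level, where dbx1a and bsx lay, 3.36% were higher without overlap.

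Other cells in the dissected tissue were followed by marker lists, of which no gene passed (smallest limma adjusted p = 0.720). An unadjusted p under 0.05 was found for 1 of 15 neuron markers (nefla, -0.75), 3 of 12 markers of glia, myelin and microglia (mpeg1.1, -1.39; s100b, -0.73; p2ry12, -0.45) and 1 of 7 red blood cell markers (hbba2, -0.42), beside 6.66% of all genes. s100b, p2ry12 and hbba2 were lower in all hypoxia fish than in any normoxia fish, as hcrt was, while mpeg1.1 and nefla overlapped. Without overlap, 9.02% of all genes were lower in hypoxia, 11.7% of those at or above the median level and 6.33% of those below it. mpeg1.1, a macrophage and microglia gene, was 8.13, 8.17 and 8.71 in hypoxia, against 10.18, 8.52 and 10.49 in normoxia. The part of these cells in the difference of hcrt was not tested. The 15 neuron markers had 5 higher and 10 lower means in hypoxia and deviated by -0.28 to 0.05 in hypoxia and by -0.36 to 0.48 in normoxia. The 12 markers of glia, myelin and microglia had 1 higher and 11 lower means, with deviations of -0.25 to -0.14 in hypoxia and of -0.33 to 0.64 in normoxia. Of all genes 38.5% had a higher and 61% a lower mean in hypoxia. Among genes at or above the median level 22.6% had a higher one. Every measured marker of the neuron list and of the glia, myelin and microglia list except p2ry12 stood above that level. The red blood cell marker hbba2 was dim, at percentile 18.7 of all gene averages. The 7 markers of red blood cells deviated by -0.07 to 0.08 in hypoxia and by -0.25 to 0.50 in normoxia. The 16 markers of skeletal muscle deviated by -0.06 to 0.18 in hypoxia and by -0.38 to 0.45 in normoxia.

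**Figure D5:**
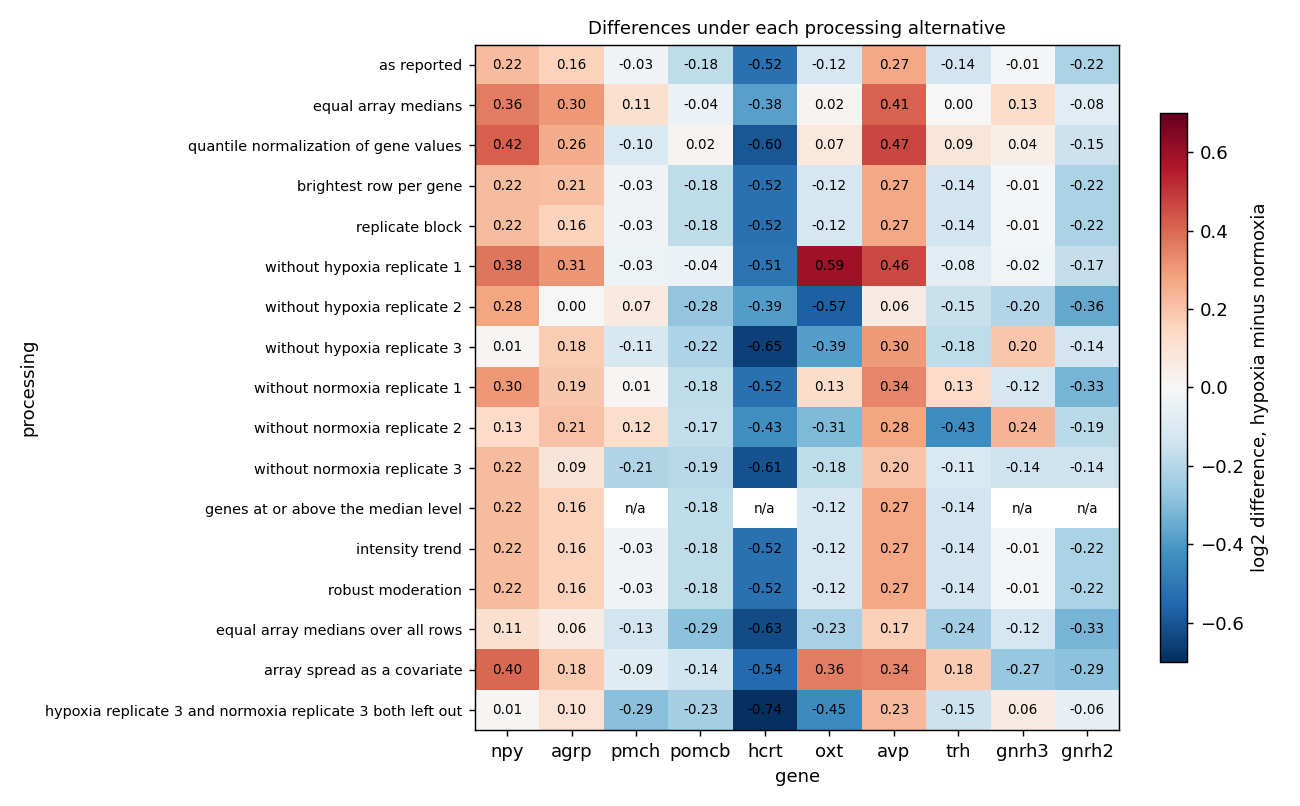
Log2 difference, hypoxia minus normoxia, of each gene (columns) under each processing alternative (rows), with the colour giving sign and size and n/a where a gene was filtered out as dim. npy, hcrt, avp and gnrh2 keep their sign in every row in which they were fitted, while the sign turns under 5 alternatives for oxt, 5 for gnrh3, 4 for trh, 4 for pmch, 1 for agrp and 1 for pomcb. The brightest row (save for agrp), replicate block, intensity trend, robust moderation and filter on dim genes leave each fitted difference unchanged.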

How the data were processed

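The authors deposited log2 values, rounded to 2 decimals and ranging from 1.62 to 14.34. They were made by RMA background correction and quantile normalization according to the design text, and Affymetrix Expression Console and RMA are the tools in the submitters' processing notes. The deposited values nevertheless differ in distribution between arrays, with medians over all rows from 6.28 in normoxia 1 to 6.60 in normoxia 2. The reason was not tested, and the differences given above are from the values as deposited unless another scaling is named. Versions, probe set level and filters were not given in the sources used here. Of 75212 rows 20806 named 1 gene, and averaging rows by gene gave 19260 genes, with no filter on dim genes. Symbols were checked through the NCBI gene identifier. Groups came from sample titles, and whether fish shared a tank or day is not stated, so p-values measure only the spread between these fish.

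The fit used limma (version 3.58.1, under R 4.3.3) on all 6 arrays without covariates with Benjamini-Hochberg adjustment over all genes. The procedure was tested on simulated data with planted differences larger than that of any member. No difference in median or spread between arrays was built in, so the test does not cover differences as small as those of the members. Alternatives were other scalings, the brightest row per gene, a filter on dim genes, an intensity trend, robust moderation, a replicate block, each fish left out and 3 later additions named as such. Lists hold genes by role, and up to 3 measured genes with the smallest p were named from the lists described. For each member the 2 informative symbols with the smallest root mean square difference of mean-centred profiles were sought. hcrtr2, mc4r, pcsk1, pcsk2, cpe, scg2b, pmchl, pomca, tbx19 and pitx1 were named after their values were seen, as were prl, cga and smtlb in a figure. Members and lists were chosen with earlier results of these data known. The number of arrays limits the precision, and no sequence was used here.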

Additional observations from a re-analysis of the deposited data

How the results depend on the processing

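No member passed the adjusted threshold under any of the 156 combinations of member and alternative, with a smallest limma adjusted p of 0.225 (trh without normoxia 2), and 20 of them turned the sign of a difference. npy, hcrt, avp and gnrh2 kept their sign under every alternative run on them, but not every alternative could turn a sign. The replicate block, intensity trend, robust moderation and filter on dim genes left each fitted difference as it was. So did the brightest row, save for agrp. Hypoxia minus normoxia became, with equal array medians, 0.11 for pmch, 0.02 for oxt, 0.0033 for trh and 0.13 for gnrh3, and after quantile normalization of gene values 0.0186 for pomcb, 0.0733 for oxt, 0.0864 for trh and 0.0425 for gnrh3. When array spread was a covariate, an alternative chosen after seeing the data, it became 0.36 for oxt and 0.18 for trh, and without hypoxia 3 and normoxia 3 together, also added later, 0.06 for gnrh3. Equal medians over all rows, added later too, turned no sign and gave -0.63 for hcrt. Leaving out 1 fish at a time gave ranges of -0.0033 to 0.31 for agrp, -0.21 to 0.12 for pmch, -0.57 to 0.59 for oxt, -0.43 to 0.13 for trh and -0.20 to 0.24 for gnrh3. The 3 members with a higher mean in hypoxia became 7 with equal medians, 7 after quantile normalization and 5 with the spread covariate, and 3 to 6 with 1 fish left out. The 1 gene past the threshold among all genes became 2 after quantile normalization, 0 with an intensity trend, 0 with equal medians over all rows, 0 among genes at or above the median level (where pmch, hcrt, gnrh3 and gnrh2 were dropped), 0 without hypoxia 3 and normoxia 3 together and 0 to 17 with 1 fish left out, the 17 without normoxia 2. The cause of these changes was not tested. Replicate numbers were shared by title only: deviations of same-numbered fish correlated at -0.34, 0.10 and 0.20, and a fit with the replicate number as a block left 1 gene past the threshold and hcrt at -0.52 (limma adjusted p = 0.832). With equal gene medians, quantile normalization or the brightest row, the differences of the 4 role scores moved by less than the SD pooled over both groups, although the releasing hormone difference of -0.12 was 0.0178 with equal gene medians, a move above its normoxia SD of 0.0283. Arrays hold no counts, and signal over background is not given for the dim members hcrt and pmch.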
